A study of Mus musculus with 71 samples.

Results

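Type I interferon-induced genes were followed through every expression table of a study of Btnl2-KO and wild-type (WT) mice. The genes were 34 members of a list of transcripts known to rise after type I interferon, and all 34 were among the 24475 gene identifiers of the bulk tables. By role, the list held 3 transcription factors (Irf7, Irf9 and Stat2), 3 sensors of foreign nucleic acid (Ifih1, Dhx58 and Zbp1), 3 genes of the ISG15 system (Isg15, Usp18 and Herc6), 4 Ifit genes (Ifit1, Ifit2, Ifit3 and Ifit3b) and 6 genes of the oligoadenylate synthetase family (Oas1a, Oas1g, Oas2, Oas3, Oasl1 and Oasl2). The remaining members were Ifi27l2a and Ifi27l2b, which encode small hydrophobic proteins, and 13 other effectors (Mx1, Mx2, Rsad2, Cmpk2, Eif2ak2, Bst2, Rtp4, Xaf1, Parp14, Trim30a, Samd9l, Ifi44 and Ifi47).

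Type I interferons bind a receptor made of Ifnar1 and Ifnar2, whose kinases Jak1 and Tyk2 phosphorylate Stat2. Stat2 and Irf9 are subunits of the complex ISGF3, which binds the interferon-stimulated response element in the promoters of its target genes. Interferon-λ drives nearly the same genes through a receptor that in the gut is borne chiefly by epithelial cells, and interferon-γ, a product of T cells, drives an overlapping set.

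The study asked how loss of Btnl2, a butyrophilin-like protein of the intestinal epithelium, shapes γδ intraepithelial lymphocytes (γδ IELs), the T cells that lie between epithelial cells. Messenger RNA was sequenced in 65 bulk libraries and 6 single-cell libraries. All mice were C57BL/6, and Btnl2-KO mice (Btnl2-/- in the labels) carried a LacZ cassette knocked into the gene in every cell. Bulk γδ IELs, sorted as CD45+ TCRβ- TCRγδ+ cells from pools of 2 mice, gave 3 Btnl2-KO and 4 WT libraries of duodenal, 4 and 4 of jejunal and 3 and 4 of ileal cells, from mice 10 weeks old by the labels and 11 by the paper. Intestinal epithelial cells (IECs), the fraction shed by EDTA that floats on Percoll, came from mice of 7 weeks and gave 2 and 3 duodenal, 3 and 3 jejunal and 3 and 2 ileal libraries. Whole tissue, labelled YNG with no age in weeks, gave 7 Btnl2-KO and 7 WT libraries of small intestine and 7 and 6 of colon. The 6 single-cell libraries held sorted γδ IELs of each segment and genotype, 1 library each, from mice of 8 to 10 weeks by the labels. By the paper they were drawn from the same sorts as the bulk libraries, which would make them not independent of these.

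Each bulk library held 13444964 to 38258478 counts. Btnl2 followed the genotype in every group, with a median of 4.29 counts per library scaled to a common size (CPM) in WT and 0 in Btnl2-KO γδ IELs. But replicate 2 of the jejunal Btnl2-KO IECs held 19.5 CPM and replicate 1 of the duodenal ones 5.45 CPM. The other Btnl2-KO IEC libraries held 0.342 to 0.595 CPM. Some libraries stood apart from their labelled segment. Fabp6, the ileal bile acid-binding protein, was at 220 CPM in replicate 1 of the duodenal Btnl2-KO IECs and at 0.231 CPM in replicate 1 of the ileal Btnl2-KO IECs, against 222 to 614 CPM in the other ileal IEC libraries. In whole small intestine, replicate 1 of the Btnl2-KO and replicate 5 of the WT group had 431 and 105 CPM of Fabp6, where the others had 1170 to 3990. For comparisons that hold these libraries, a count of members, their median or both are also given without them. Where tests compare libraries, the labels do not say that IEC and tissue libraries came from separate mice, so p-values measure the spread between libraries. γδ IELs of all 3 segments came from 1 cohort of cohoused mice by the paper, the labels do not tie libraries to mice, and tests between segments treat libraries as separate although they may share animals.

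The promoters of 24 members were found in RefSeq (build GRCm38.p6, 250 bases before to 50 bases after each start), and 13 of them held the core of the interferon-stimulated response element, searched as GAAA, any 2 bases and GAAA again, or the reverse complement with TTTC. Counted by gene in the same way, 3.99% of all 27025 genes held it in at least 1 promoter of that length. A match describes letters and not a bound site, and overlapping matches were counted apart. The 150 bases before the start are shown for 6 members to which the results return, each 5′ to 3′ on the gene's own strand, with the matched letters in capitals. Isg15 (chr4:156200819-156200968, minus strand), a ubiquitin-like modifier, had 3 overlapping matches, Ifit1 (chr19:34640739-34640888, plus strand) 2, Rsad2 (chr12:26456453-26456602, minus strand), which encodes the antiviral enzyme viperin, 1, and Bst2 (chr8:71537473-71537622, minus strand), which tethers budding virus to the cell, 2. Irf7 (chr7:141266425-141266574, minus strand), the factor that amplifies interferon-α transcription, and Ifi47 (chr11:49076437-49076586, plus strand), a GTPase induced by interferon-γ as well, had none in these bases.
Isg15: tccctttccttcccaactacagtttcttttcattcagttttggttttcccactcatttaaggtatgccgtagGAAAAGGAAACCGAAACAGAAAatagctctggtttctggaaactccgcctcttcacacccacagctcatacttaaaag
Ifit1: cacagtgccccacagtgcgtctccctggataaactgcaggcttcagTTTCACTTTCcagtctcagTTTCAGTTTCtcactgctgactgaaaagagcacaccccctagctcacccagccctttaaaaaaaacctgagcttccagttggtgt
Rsad2: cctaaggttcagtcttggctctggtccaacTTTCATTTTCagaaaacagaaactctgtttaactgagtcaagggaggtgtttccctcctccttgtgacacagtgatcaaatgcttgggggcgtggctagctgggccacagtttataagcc
Bst2: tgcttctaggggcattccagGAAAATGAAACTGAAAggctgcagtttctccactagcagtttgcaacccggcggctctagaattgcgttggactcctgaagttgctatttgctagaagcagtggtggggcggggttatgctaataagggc
Irf7: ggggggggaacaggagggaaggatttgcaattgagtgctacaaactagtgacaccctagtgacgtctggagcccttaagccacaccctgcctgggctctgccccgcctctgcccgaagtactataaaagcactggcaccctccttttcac
Ifi47: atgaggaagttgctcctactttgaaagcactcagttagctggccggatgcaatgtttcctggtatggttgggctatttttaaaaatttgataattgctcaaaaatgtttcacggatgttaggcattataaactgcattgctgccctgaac

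Levels were first compared between fractions of WT mice, in CPM scaled within each table. In γδ IELs, 19 of the 34 members lay higher in each of 12 libraries than in each of 8 IEC libraries, 2 lay lower in all of them, and 13 overlapped. Of 13972 genes, 36.2% lay higher and 18.1% lower in γδ IELs in the same way. The fraction came with its own table, age and library batch, which cannot be told apart from the cell type, and no test was made. In bulk samples, fewer cells of a type and less RNA per cell cannot be told apart either.

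All 3 transcription factors were among the 19. Irf7 had a lowest, median and highest level of 51.3, 69.0 and 103 CPM in γδ IELs and of 5.84, 15.6 and 22.3 CPM in IECs, a ratio of medians of 4.42. Irf9, the DNA-binding subunit of ISGF3, had 51.7, 71.4 and 98.3 CPM against 15.1, 17.9 and 27.9 CPM (ratio 3.99). Stat2, its partner, had 33.7, 50.3 and 79.6 CPM against 9.87, 17.6 and 24.3 CPM (ratio 2.87). For each factor the lowest γδ IEL library exceeded the highest IEC library. Isg15 stood at 20.3, 25.7 and 46.6 CPM in γδ IELs and at 2.22, 4.29 and 10.2 CPM in IECs, again without overlap.

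The widest gaps were those of Ifi27l2a and Trim30a. Ifi27l2a had 16.7, 26.8 and 80.9 CPM in γδ IELs and 0, 0.223 and 0.572 CPM in IECs, a ratio of medians of 120. Its relative Ifi27l2b overlapped between the fractions, at 32.5, 82.0 and 220 CPM in γδ IELs and 47.5, 83.6 and 124 CPM in IECs. Ifi47 had 244, 431 and 577 CPM against 16.6, 29.1 and 40.1 CPM (ratio 14.8). The ratio was 25 for Trim30a, a TRIM family protein, 17.2 for Xaf1, an antagonist of the apoptosis inhibitor XIAP, 14.3 for Rtp4, 11.7 for Bst2, 9.17 for Dhx58, the helicase that regulates RNA sensors, and 8.67 for Zbp1, the sensor of Z-form nucleic acid. The members that lay lower in γδ IELs were both of the oligoadenylate synthetase family. Oasl2 had 2.33, 4.18 and 7.62 CPM in γδ IELs and 16.6, 24.5 and 33 CPM in IECs, and Oas2, which makes the messenger that activates RNase L, had 0, 0.142 and 0.596 CPM against 0.715, 0.811 and 1.29 CPM. Ifit1, which binds viral RNA caps, overlapped at 8.22, 12.6 and 18.5 CPM against 3.17, 4.64 and 12.1 CPM.

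**Figure D1:**
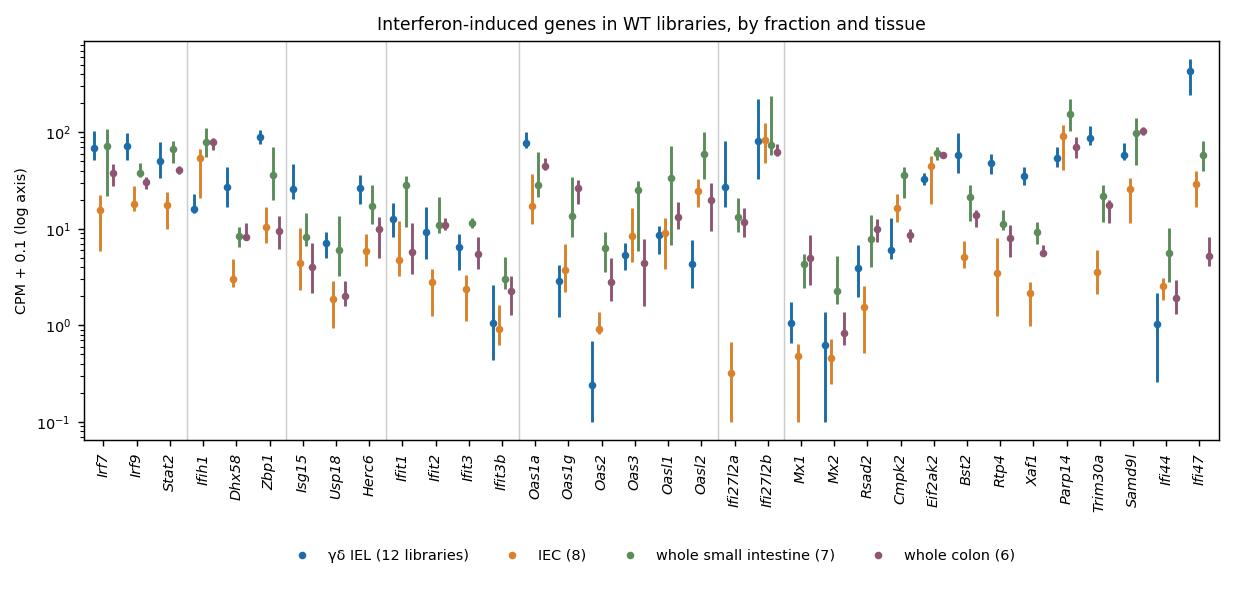
Level of each member in WT libraries, as CPM plus 0.1 on a log axis, with points for medians and lines from the lowest to the highest library in γδ IELs (12), IECs (8), whole small intestine (7) and whole colon (6). Members are ordered by role, and Ifi27l2a, at a median of 26.8 CPM in γδ IELs and 0.223 CPM in IECs, shows the widest gap between the sorted fraction and the epithelium.

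Along the small intestine of WT mice, the jejunum stood apart in γδ IELs. Against the duodenum, 4 members rose and 4 fell in the jejunum (edgeR quasi-likelihood test, false discovery rate (FDR) below 0.05 and fold change above 1.5), 8 of 33 tested where 22.5% of all genes were called, 10.4% as higher and 12.1% as lower. The members' median log2 fold change was 0.13, against 0.02 over all genes tested. Without overlap between segments, 5 members lay higher and 4 lower in the jejunum, as did 18.2 and 16.4% of all genes, and 13 members had an unadjusted p below 0.05, as had 44.5%. The ileum against the jejunum gave 1 member that rose and 5 that fell, with 21.9% of all genes called, 11.4% as higher and 10.5% as lower, and medians of -0.17 and 0.01. In this step 1 member lay higher and 10 lay lower without overlap, against 14 and 18.4% of all genes, and 14 had an unadjusted p below 0.05, against 44.6%. The members' shares of calls, 8 and 6 of 33, were near those of all genes.

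Stat2 was at 44.0, 39.9, 53.4 and 43.1 CPM in the duodenum, 76.0, 54.5, 79.6 and 65.6 CPM in the jejunum, and 49.8, 34.0, 33.7 and 50.8 CPM in the ileum. All 4 jejunal libraries lay above all duodenal and ileal ones. The log2 fold change was 0.60 ± 0.17 (SE, FDR 0.0178) from duodenum to jejunum and -0.69 ± 0.17 (FDR 0.0101) from jejunum to ileum. Irf7 had 54.4, 65.2, 72.8 and 54.0 CPM in the duodenum and 100.2, 91.2, 94.9 and 87.1 CPM in the jejunum, also without overlap (log2 fold change 0.59 ± 0.19, FDR 0.0285). In the ileum, Irf7 was at 103, 60.1, 51.3 and 60.3 CPM, so that replicate 1 reached the jejunal range and the other 3 did not. The WT single-cell libraries, read below, had no jejunal maximum of Stat2 or Irf7.

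Ifit2, a paralog of Ifit1, followed the order of Stat2, with 6.94, 9.82, 10.2 and 6.91 CPM in the duodenum, 16.7, 12.5, 15.6 and 13.7 CPM in the jejunum, and 7.75, 4.80, 7.27 and 8.59 CPM in the ileum. Its groups did not overlap in either step, and it changed by 0.77 ± 0.21 (log2, FDR 0.0154) and -1.02 ± 0.22 (FDR 0.00593). Ifit1 had 8.22, 11.8, 14.4 and 14.8 CPM in the duodenum, 17.8, 13.4, 13.7 and 18.5 CPM in the jejunum, and 11.1, 8.24, 8.33 and 9.77 CPM in the ileum. Duodenum and jejunum overlapped, while the fall from jejunum to ileum did not (-0.74 ± 0.21, FDR 0.0171). Cmpk2, the nucleotide kinase gene that neighbours Rsad2, had 5.59, 6.74, 5.64 and 5.58 CPM, then 9.16, 10.3, 6.39 and 12.8 CPM, then 4.83, 4.87, 5.40 and 6.33 CPM. It rose by 0.70 ± 0.22 (log2, FDR 0.0259) and fell by 0.83 ± 0.22 (FDR 0.0132). Oas3 fell from 6.96, 6.08, 6.81 and 6.71 CPM in the jejunum to 4.71, 4.87, 3.73 and 3.67 CPM in the ileum.

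A second set of members ran the other way. Ifi27l2a was at 45.0, 28.2, 31.1 and 80.9 CPM in the duodenum and 17.6, 16.7, 24.5 and 22.7 CPM in the jejunum, without overlap (log2 fold change -1.19 ± 0.28, FDR 0.00716). Isg15 had 41.6, 32.8, 26.2 and 46.6 CPM in the duodenum against 23.6, 20.3, 25.2 and 23.7 CPM in the jejunum, also without overlap (-0.68 ± 0.18, FDR 0.0131). Bst2 had 93.4, 63.5, 51.1 and 98.7 CPM against 50.1, 51.0, 49.2 and 38.1 CPM, where replicate 3 of the duodenum lay just above the highest jejunal library (-0.71 ± 0.20, FDR 0.0177). In the ileum, Bst2 was at 82.2, 80.2, 61.3 and 55.4 CPM and lay above the jejunum in all 4 libraries (0.59 ± 0.20, FDR 0.0409). Ifi27l2b had 219.5, 157, 59.3 and 98.1 CPM in the duodenum and 47.7, 79.1, 32.5 and 52.1 CPM in the jejunum, with overlap (-1.35 ± 0.35, FDR 0.0110). Isg15 and Bst2 thus fell in the step in which Ifit2 and Stat2 rose. The members that fell in it also had the shortest summed exons of the list. These were 463 bases for Ifi27l2a, 756 for Isg15, 903 for Bst2 and 1093 for Ifi27l2b. The members that rose had 3776 (Irf7), 3927 (Ifit2), 4163 (Cmpk2) and 5926 bases (Stat2). The part of transcript length was not tested.

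Between the ileum and the duodenum 0 of 33 members were called by edgeR, DESeq2 or limma-voom, where edgeR called 2.11% of all genes. At an unadjusted p below 0.05, 1 was higher and 2 were lower, against 12% of all genes. The lowest p values belonged to Ifi27l2a (-0.84 ± 0.28, unadjusted p = 0.00925) and Mx2 (1.83 ± 0.74, unadjusted p = 0.0263), annotated as a transcribed pseudogene in the reference, with 0 to 0.539 CPM in the duodenum and 0.467 to 1.29 CPM in the ileum.

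The counts of both jejunal steps rested on single libraries. Without replicate 1 or 4 of the WT duodenum, 4 and 3 members were called in the first step, and without replicate 1 of the WT jejunum or replicate 3 of the WT ileum, 3 in the second. With Btnl2-KO libraries added and genotype as a covariate, 2 members were called in each step, Ifi47 and Ifit2 rising in the first and Ifit1 and Ifit2 falling in the second. limma-voom called 12 members in the second step, with 33.3% of all genes. The 12 epithelium markers summed to 3311 to 5303 CPM in the duodenum, 2044 to 5649 in the jejunum and 3461 to 9033 in the ileum. With these as a covariate, 6 and 2 members were called. Another list, of 6 enterocyte markers, summed to 922 to 5077 CPM in the WT duodenum and 303 to 1038 CPM in the WT jejunum, with overlap. Within each of these segments, Ifi27l2b followed the rank order of this sum over the WT libraries. Between segments, the ileal sums reached less high than the jejunal ones, and mean Ifi27l2b was higher in the ileum. The part of enterocytes in these steps was not tested.

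**Figure D2:**
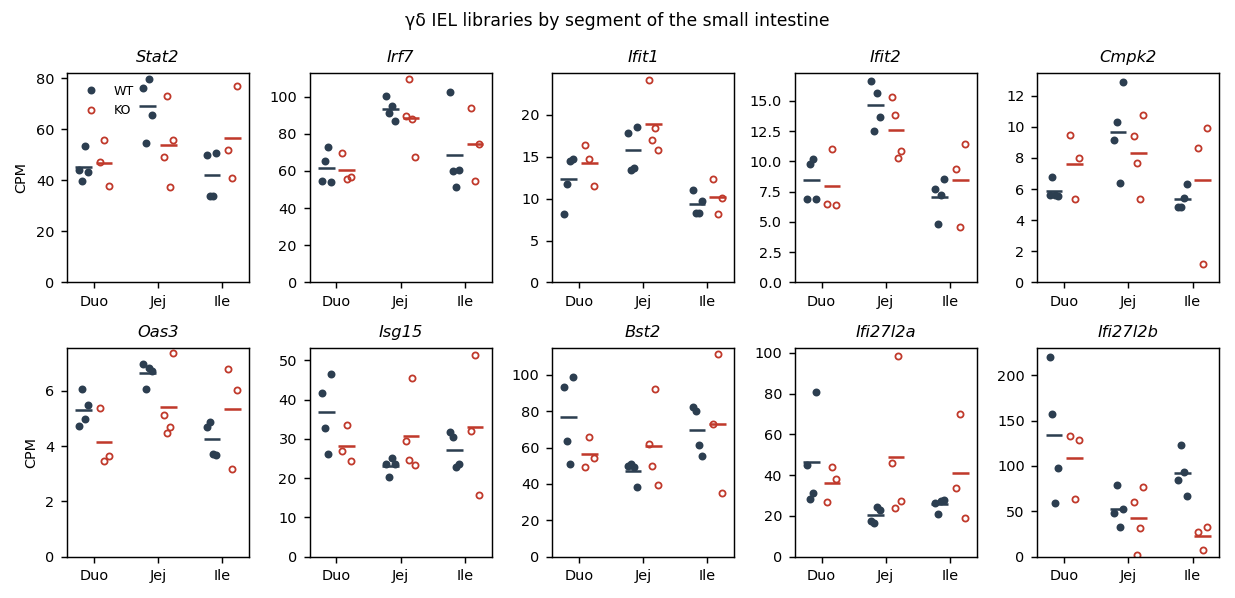
CPM of 10 members in each bulk γδ IEL library by segment, with filled points for WT, open points for Btnl2-KO and lines at group means. In WT mice the 4 jejunal libraries of Stat2 (54.5 to 79.6 CPM) lie above all duodenal and ileal ones, and those of Ifi27l2a (16.7 to 24.5 CPM) lie below all duodenal ones.

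Other genes of the pathway were read in the same steps, in which 22.5 and 21.9% of all genes were called. From duodenum to jejunum, 3 of 9 receptor and kinase genes rose, with log2 fold changes of 0.77 for Ifnar1, 0.72 for Jak2 and 1.03 for Tyk2. Of 10 upstream sensors and adaptors tested, 3 rose, namely Ddx58 (0.78), which encodes the RNA sensor RIG-I, Mavs (0.84), its adaptor, and Tbk1 (0.93), the kinase downstream. Socs3, an inhibitor of cytokine signalling, rose by 1.36. Of 21 interferon-γ-type genes tested, 5 rose (Gbp3, Gbp4, Gbp6, Gbp9 and Irgm2, GTPases of host defence) and 2 fell (Psmb9 and Psmb10, subunits of the immunoproteasome). From jejunum to ileum, 2 receptor and kinase genes, 2 sensors and adaptors, 1 other factor and 5 interferon-γ-type genes fell and none of these lists had a called rise. Transcripts of type I interferons themselves were at or near 0 everywhere, with a highest group mean of 0.0185 CPM over 6 type I and 2 type III interferon genes of the list. Ifng, the gene of interferon-γ, had group means of 11.7 to 29.9 CPM in γδ IELs and of at most 0.508 CPM in the other fractions.

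In IECs of WT mice no member was called between segments by edgeR, where 6.59% of all genes were called between ileum and duodenum, 0.767% between jejunum and duodenum and 0.644% between ileum and jejunum. At an unadjusted p below 0.05 these comparisons gave 4, 2 and 0 of 34 members, where 19.3, 14.5 and 6.42% of all genes reached it. Between ileum and duodenum DESeq2 called 1 member and 10.2% of all genes, and limma-voom 2 and 12.5%, while both called 0 members in the other comparisons. Stat2 had 11.5, 9.87 and 14.8 CPM in the duodenum, 17.6, 17.5 and 17.8 CPM in the jejunum, and 17.9 and 24.2 CPM in the ileum. Both other segments lay above the duodenum, with a log2 fold change of 0.83 ± 0.22 between ileum and duodenum (edgeR, FDR 0.0579). Zbp1 was next, at 8.24, 9.16 and 7.07 CPM in the duodenum and 11.4 and 16.6 CPM in the ileum (0.80 ± 0.31, unadjusted p = 0.0283).

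Whole colon of WT mice held less of these transcripts than whole small intestine. Of 34 members, 21 fell and 0 rose in the colon (edgeR, FDR below 0.05 and fold change above 1.5), where 15.6% of all genes were called lower and 12% higher. The members' median log2 fold change was -0.77, against -0.02 over all genes tested. For 10 members every colon library lay below every small intestinal one, a pattern held by 10.8% of all genes. Without replicate 5 of the WT small intestine, low in Fabp6, 19 members fell, Rtp4 and Ifit3b no longer being called, and the median was -0.72. An unadjusted p below 0.05 was reached by 25 members and 53.2% of all genes, while 27.6% were called in either direction.

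Ifi47 showed the largest difference, with a lowest, median and highest level of 39.4, 58.6 and 81.9 CPM in the small intestine and 4, 5.08 and 8.11 CPM in the colon (log2 fold change -3.33 ± 0.22, FDR 2.84e-08). The groups were far apart. Among the factors, Stat2 had 48.5, 66.5 and 82.2 CPM against 36.6, 40.5 and 44.9 CPM (-0.72 ± 0.11, FDR 9.27e-05), without overlap. Irf7 had 21.6, 71.4 and 108 CPM against 27.9, 37.9 and 46.5 CPM (-0.90 ± 0.31, FDR 0.0253), with overlap at the low end of the small intestine. Irf9 passed the FDR but not the fold change (-0.45, FDR 0.00205).

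Of the sensors, Zbp1 fell from 19.7, 36.1 and 70.4 CPM to 6.03, 9.41 and 13.5 CPM (-2.07 ± 0.31, FDR 6.98e-05), without overlap. Ifih1 and Dhx58 were not called. Ifih1, which encodes the double-stranded RNA sensor MDA5, had medians of 80.1 CPM in both tissues. All 3 genes of the ISG15 system fell. Isg15 had 6.51, 8.14 and 14.6 CPM in the small intestine and 2.05, 3.94 and 7.00 CPM in the colon (-1.15 ± 0.26, FDR 0.00232), with overlap. Usp18, the protease that removes ISG15 and restrains the interferon receptor, had 3.17, 5.92 and 13.3 CPM against 1.48, 1.90 and 2.82 CPM, without overlap, and Herc6, the ISG15 ligase of mice, fell by 1.05 on the log2 scale.

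Ifit1, Ifit3 and Ifit3b fell and Ifit2 was not called. Ifit1 had 10.4, 28.4 and 35.6 CPM in the small intestine and 3.28, 5.67 and 11.4 CPM in the colon (-2.10 ± 0.30, FDR 5.93e-05). Its highest colon library exceeded its lowest small intestinal one. Oas2, Oas3, Oasl1 and Oasl2 fell, while Oas1a and Oas1g were not called and had positive log2 fold changes of 0.49 and 0.65. Oas3 had 5.82, 25.1 and 31.4 CPM against 1.51, 4.28 and 7.70 CPM (-2.39 ± 0.41, FDR 2.71e-04), with overlap. Of the other effectors, 8 fell, among them Cmpk2 at 20.9, 35.9 and 43.2 CPM against 7.25, 8.64 and 9.86 CPM (-1.97 ± 0.15, FDR 1.3e-07), and Parp14, a mono-ADP-ribosyltransferase, at 103, 155 and 222 CPM against 54.1, 70.8 and 88.4 CPM (-1.20, FDR 2.87e-05). Neither member of the Ifi27-like pair was called, at -0.28 for Ifi27l2a and -0.83 for Ifi27l2b.

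All 22 interferon-γ-type genes of the list fell in the colon, with a median of -1.97, as did Irf1, Irf8, Socs1 and Socs3. The 9 γδ IEL markers found in these tables summed to 100.1 to 184 CPM in WT small intestine and to 10.9 to 18.1 CPM in WT colon. Many members were higher in γδ IELs than in IECs, and the part of γδ IELs in the difference was not tested. Summed over the members, small intestinal libraries held 780 to 1488 CPM and colon libraries 649 to 820 CPM.

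**Figure D3:**
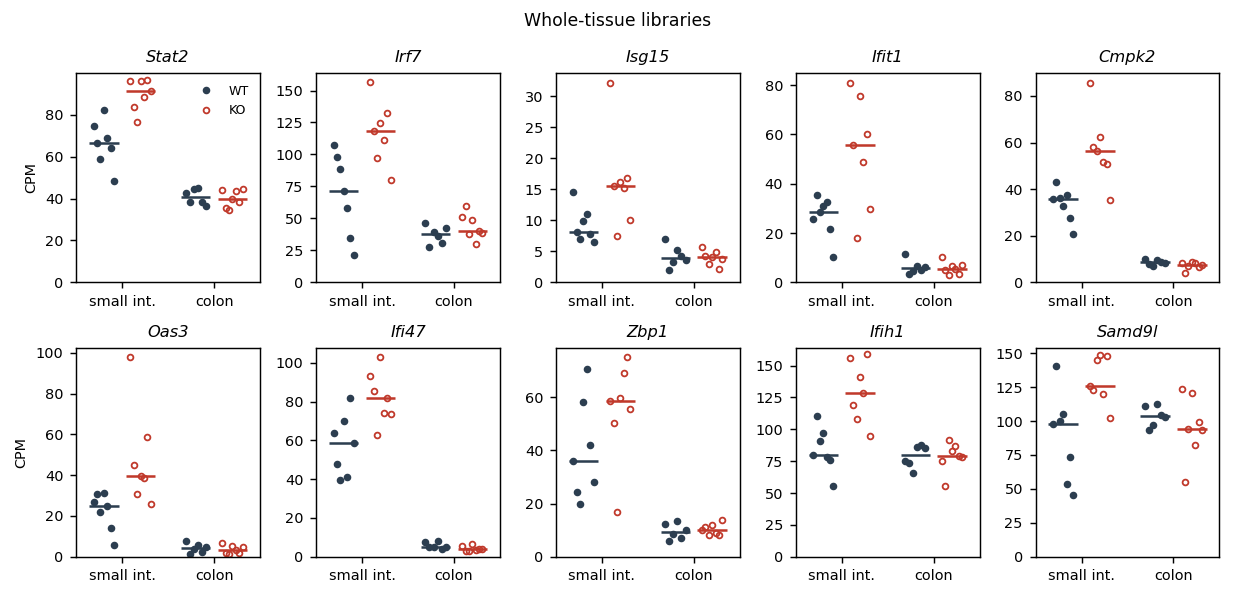
CPM of 10 members in each whole small intestine (SI) and whole colon (CO) library by genotype, with lines at group medians. Colon libraries lie below small intestinal ones for Ifi47 and Cmpk2 in both genotypes, and the Btnl2-KO small intestine reaches higher than the WT (Cmpk2 median 56.3 against 35.9 CPM) with overlap for every member.

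Between Btnl2-KO and WT libraries no member was called in any of 8 comparisons by edgeR at an FDR below 0.05 and a fold change above 1.5. All genes together gave few calls in the same comparisons, at 0.00789, 0.00794 and 0% in duodenal, jejunal and ileal γδ IELs, 0, 0 and 0.00774% in duodenal, jejunal and ileal IECs, 0.0202% in small intestine and 0.0269% in colon. DESeq2 and limma-voom also called 0 members in all comparisons other than ileal γδ IELs and small intestine. At an unadjusted p below 0.05, members numbered 1, 2 and 3 of 32, 33 and 33 in γδ IELs (2.07, 6.38 and 8.79% of all genes), 0, 1 and 9 of 31, 33 and 34 in IECs (1.22, 8.4 and 2.07%), 16 of 34 in small intestine (23%) and 0 of 34 in colon (4.14%). No gene of the wider pathway lists was called in any of them. The comparisons differed in what they could call. In simulated counts of well-counted genes, edgeR called 16% of 2-fold and 87% of 4-fold changes in ileal γδ IELs. It called 2 and 60% in duodenal IECs and 89 and 98% in small intestine, so an absence of calls in the smaller groups says little.

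**Figure D4:**
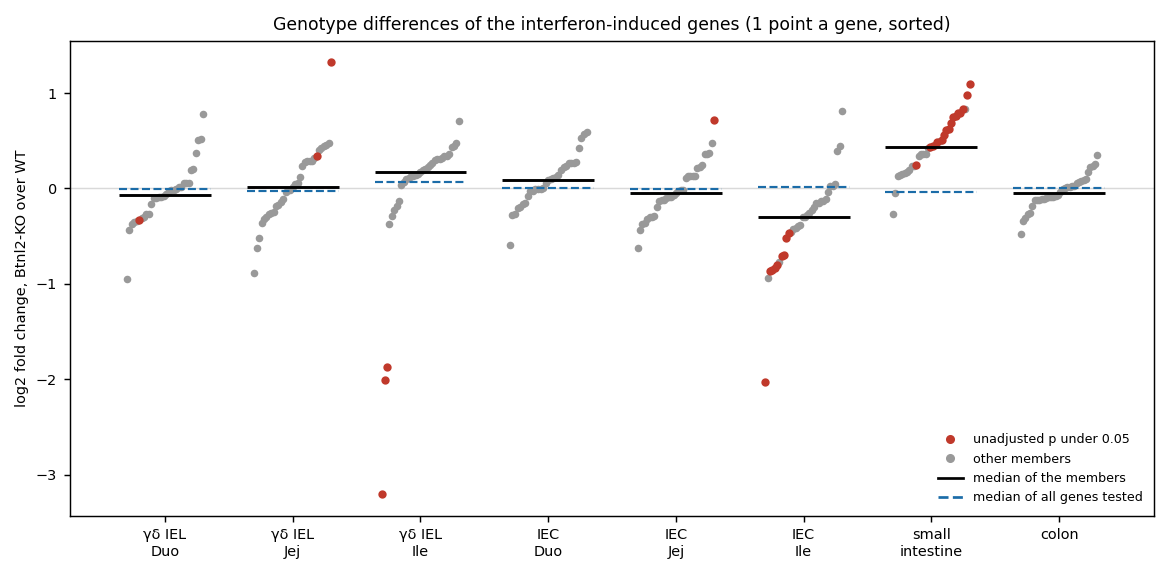
log2 fold change of Btnl2-KO over WT for each tested member in 8 comparisons, with red for an unadjusted p below 0.05, black lines at the members' median and dashed blue lines at the median of all genes. The medians are 0.44 and -0.03 in small intestine and -0.30 and 0.02 in ileal IECs, and no point passes the FDR.

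In whole small intestine, 32 of 34 members had a positive log2 fold change, with a median of 0.44 against -0.03 over all genes, of which 44.8% were positive. The γδ IEL markers also summed higher in Btnl2-KO libraries, with a lowest, median and highest level of 77.9, 202 and 236 CPM against 100.1, 133 and 184 CPM in WT, with overlap, and their part was not tested. All 16 members at an unadjusted p below 0.05 were higher in Btnl2-KO libraries, as were 11.9% of all genes. Cmpk2 had a lowest, median and highest level of 35.4, 56.3 and 85.6 CPM in Btnl2-KO and 20.9, 35.9 and 43.2 CPM in WT libraries (0.76 ± 0.18, FDR 0.113). Stat2 had 76.5, 91.2 and 96.6 CPM against 48.5, 66.5 and 82.2 CPM (0.43 ± 0.10, FDR 0.113). The groups overlapped for these as for all other members, and the lowest FDR of any member was 0.113.

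The sensor Ifih1 had 95.1, 128 and 159 CPM in Btnl2-KO and 55.2, 80.1 and 111 CPM in WT small intestine (0.61 ± 0.15, FDR 0.113). Ifit1 had 18.0, 55.7 and 80.9 CPM against 10.4, 28.4 and 35.6 CPM (0.98 ± 0.31, FDR 0.126). Isg15 had 7.49, 15.5 and 32.2 CPM against 6.51, 8.14 and 14.6 CPM (0.80 ± 0.27, FDR 0.135), and Irf7 79.9, 119 and 157 CPM against 21.6, 71.4 and 108 CPM (0.75 ± 0.29, FDR 0.163). In each of these the upper Btnl2-KO libraries passed the highest WT one and the lower ones fell within the WT range. Ifi27l2a had 8.91, 12.3 and 17.6 CPM against 9.10, 13.2 and 20.7 CPM (-0.04 ± 0.19), and Ifi27l2b 90.6, 119 and 403 CPM against 58.0, 73.8 and 236 CPM (0.49 ± 0.42).

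DESeq2 called 8 members higher in the Btnl2-KO small intestine (Isg15, Ifit1, Cmpk2, Oas3, Parp14, Rsad2, Herc6 and Ifih1), where it called 1.19% of all genes, limma-voom called Cmpk2 (0.343%), and edgeR over all tissue libraries called 4 (Cmpk2, Parp14, Rsad2 and Ifih1). The epithelium markers summed to 14907 to 20179 CPM in Btnl2-KO and 10018 to 19343 CPM in WT libraries. With their mean as a covariate, 7 members remained at an unadjusted p below 0.05 and the median was 0.33. Without replicate 1 of the Btnl2-KO and 5 of the WT group, the libraries low in Fabp6, 15 members were at that level with a median of 0.36. Without replicates 6 and 7 of the WT group, which had the lowest enterocyte markers, there were 12 and the median was 0.35. These 3 fits were chosen after the data were seen, and edgeR called 0 members in each.

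In colon the members' median was -0.05 against 0.01 over all genes. The lowest p values were those of Ifi47 (-0.48 ± 0.23, unadjusted p = 0.0541), at 2.86, 3.77 and 6.65 CPM in Btnl2-KO and 4, 5.08 and 8.11 CPM in WT libraries, and of Oas1a (0.17 ± 0.10, unadjusted p = 0.0974), at 44.9, 52.2 and 67.9 CPM against 41.0, 44.7 and 54.0 CPM. Both overlapped widely. Whether the genotype difference itself differed between tissues was fitted as an interaction, and edgeR called 0 of 34 members, with 0.0193% of all genes called. At an unadjusted p below 0.05 were 11 members, all with a lower genotype difference in colon, where 6% of all genes were lower and 12.9% changed either way at that level. Cmpk2 led with -1.02 ± 0.24 (FDR 0.252), and DESeq2 called it alone among the members, with 0.109% of all genes called. Without the small intestinal libraries low in Fabp6, edgeR again called 0 members, 8 were at an unadjusted p below 0.05, all lower, and Cmpk2 had -0.92 ± 0.22 (FDR 0.332).

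In ileal γδ IELs, 25 of 33 members tested had a positive log2 fold change in Btnl2-KO libraries, as had 57.1% of all genes (median 0.17, all genes 0.06). The 3 at an unadjusted p below 0.05 were lower, as were 6.32% of all genes. Ifi27l2b had 27.5, 7.49 and 33.1 CPM in Btnl2-KO and 85.0, 123, 93.4 and 66.8 CPM in WT libraries (-2.0 ± 0.43, unadjusted p = 0.000853, FDR 0.432). Oas1g had 0.494, 0.808 and 1.46 CPM against 4.11, 3.87, 2.13 and 3.73 CPM (-1.87 ± 0.52, FDR 0.436). Ifi44 had 0.123, 0 and 0.208 CPM against 2.09, 1.29, 0.4 and 0.847 CPM (-3.21 ± 0.92, FDR 0.438). In none of the 3 did the genotypes overlap, and 4.1% of all genes were lower in the same way. DESeq2 called Ifi27l2b and Oas1g, where it called 1.75% of all genes, and limma-voom called both and Dhx58, which was higher (9.58%).

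Fabp6 was also lower without overlap, at 94.4 to 134 CPM in the ileal Btnl2-KO and 322 to 610 CPM in the ileal WT γδ IEL libraries. The summed enterocyte markers overlapped between these genotypes. Epithelium markers were mostly lower in Btnl2-KO libraries, but with overlap. Their sum was 2883, 1014 and 3635 CPM in the ileal Btnl2-KO and 3461, 9033, 7947 and 6770 CPM in the ileal WT γδ IEL libraries. The WT library with 3461 CPM had the highest Oas1g and Ifi44 of all these libraries. The jejunal Btnl2-KO library with the lowest sum of all γδ IEL libraries, 605 CPM in replicate 2, also had the lowest Ifi27l2b, at 1.99 CPM, where the other 3 had 60.4, 31.7 and 76.6 CPM. In single γδ IELs Ifi27l2b was scarce, at 1.07 to 3.23 CPM of unique molecular identifiers (UMIs) in 0.185 to 0.485% of the cells kept and 1.21 to 10.1 CPM over all barcodes, and Oas1g and Ifi44 gave 23 and 13 UMIs over all 6 libraries. With the markers as a covariate, the log2 fold change was -1.20 ± 0.35 for Ifi27l2b, -1.80 ± 0.65 for Oas1g and -3.34 ± 1.07 for Ifi44 (edgeR, FDR 0.578 for each), so that Ifi27l2b came closer to 0 and the other 2 moved little.

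In jejunal γδ IELs, Ifi27l2a had 46.1, 23.9, 98.5 and 27.3 CPM in Btnl2-KO and 17.6, 16.7, 24.5 and 22.7 CPM in WT libraries (1.32 ± 0.45, unadjusted p = 0.0167, FDR 0.583). Of its Btnl2-KO libraries 3 lay above all WT ones. The highest, replicate 3, had 32.6 CPM of Fabp6, where the other jejunal γδ IEL libraries had 0 to 4.44 CPM. No fold change without replicate 3 is given. Xaf1 had 41.6, 38.8, 44.3 and 30.6 CPM against 32.4, 30.1, 35.0 and 28.6 CPM (0.34 ± 0.15, FDR 0.583), with overlap. In duodenal γδ IELs, Zbp1 had 63.9, 75.5 and 72.7 CPM against 82.9, 83.3, 89.9 and 99.6 CPM, without overlap, as for 1.81% of all genes (-0.33 ± 0.13, FDR 0.997). Medians over the members were 0.02 and -0.07, against -0.02 and 0.00 over all genes. In the ileum Ifi27l2a had 33.6, 69.8 and 19 CPM in Btnl2-KO libraries, on both sides of the WT values of 21.0 to 27.8 CPM.

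Isg15, Ifit1, Irf7 and Stat2 overlapped between genotypes in γδ IELs of every segment. Isg15 had 26.9, 33.5 and 24.5 CPM in duodenal, 29.4, 24.7, 45.4 and 23.4 CPM in jejunal and 32.1, 51.4 and 15.6 CPM in ileal Btnl2-KO libraries. Stat2 had 47.3, 55.9 and 37.6 CPM, 49.0, 73.1, 37.3 and 55.9 CPM, and 51.8, 40.8 and 76.8 CPM in the same order. The jejunal maximum of Stat2 seen in WT mice was thus not visible in the means of Btnl2-KO mice, at 47.0, 53.8 and 56.4 CPM from duodenum to ileum. As an interaction of genotype with ileum against jejunum, the difference for Stat2 was 0.77 and was not called by edgeR, which called 0 members and 0% of all genes in both γδ IEL interactions. At an unadjusted p below 0.05, 3 members (Stat2, Parp14 and Herc6) were higher in this interaction, against 9.13% of all genes higher and 14.4% either way. For ileum against duodenum, 2 members (Oas1g and Zbp1) were at that level, against 5.73%. limma-voom called 4 members in the first of them (Stat2, Oas3, Irf7 and Herc6) and 20.2% of all genes.

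In ileal IECs the members' median log2 fold change was -0.30 in Btnl2-KO libraries, against 0.02 over all genes, with 28 of 34 negative, while 52.2% of all genes were positive. For 14 members all Btnl2-KO libraries lay below both WT ones, as for 9.82% of all genes, and for 1 above, as for 10.6%. The 9 members with an unadjusted p below 0.05 were all lower, as were 1.41% of all genes. Oas3 had 4.61, 5.77 and 4.43 CPM in Btnl2-KO and 9.52 and 8.23 CPM in WT libraries (-0.84 ± 0.21, unadjusted p = 0.00749, FDR 0.900). Isg15 had 2.19, 2.60 and 2.70 CPM against 4.34 and 4.84 CPM (-0.87 ± 0.24, FDR 0.900), and Irf7 5.59, 11.3 and 9.28 CPM against 15.2 and 16.6 CPM (-0.85 ± 0.29, FDR 0.900). Rsad2 had 0.0576, 0.675 and 0.467 CPM against 1.68 and 1.82 CPM.

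The γδ IEL markers moved the same way, at 22.6, 212 and 145 CPM in the ileal Btnl2-KO and 217 and 272 CPM in the ileal WT IECs, and their part was not tested. Without replicate 1 of the Btnl2-KO group, which lacked Fabp6, the median was -0.26 and 10 members, all lower, had an unadjusted p below 0.05. In jejunal IECs Samd9l had 38.4, 54.5 and 36.5 CPM in Btnl2-KO and 26.0, 18.0 and 33.7 CPM in WT libraries (0.72 ± 0.26, unadjusted p = 0.0215, FDR 0.568), without overlap, as for 9.54% of all genes, and Zbp1 was next, with overlap (-0.63 ± 0.30, unadjusted p = 0.0694). In duodenal IECs Stat2 had 20.1 and 15.7 CPM against 11.5, 9.87 and 14.8 CPM (0.59 ± 0.30, unadjusted p = 0.0846), apart as for 5.9% of all genes, and Parp14 116 and 71.9 CPM against 79.3, 40.7 and 78.7 CPM (0.53 ± 0.39, unadjusted p = 0.212). Medians over the members were 0.09 in the duodenum and -0.05 in the jejunum, and 0.25 and -0.15 without the libraries whose markers or Btnl2 level went against their labels.

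Single γδ IELs were read as UMIs, each of which marks 1 captured molecule, so that genes can be compared without regard to length. Each library held 3589 to 4647 cells after filters, with a median of 4877 to 5468 UMIs per cell, and pairs of libraries shared 19 to 31 barcodes, where random draws would give 18.7 to 25.6. The members together made 1048 to 1177 UMIs in a library scaled to a common size (UMI CPM). With 1 library for each segment and genotype, no difference between libraries was tested, and intervals cover counting error only. No cell type that should lack these genes was present to set a background.

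Ifi47 gave the most UMIs, at 219, 251, 213, 224, 230 and 225 UMI CPM in duodenal Btnl2-KO and WT, jejunal Btnl2-KO and WT, and ileal Btnl2-KO and WT cells, and was found in 62.1 to 69.7% of cells. In the same order Ifi27l2a had 131, 96.7, 104, 82.1, 85.7 and 71.6 UMI CPM and was found in 15.2 to 20.7% of cells. In each segment the Btnl2-KO library was higher for Ifi27l2a, a difference between single libraries. Isg15 had 83.3 to 101.2, Irf7 76.4 to 89.2 and Bst2 65.4 to 75.0 UMI CPM. Isg15 and Ifi27l2a thus gave almost the same number of molecules over all libraries, 12342 and 12357, but Isg15 was found in 28.6 to 34.8% of cells. Stat2 had 28.8 to 36.6 and Ifit1 4.94 to 11.01 UMI CPM. The 8 listed type I and type III interferon genes gave 0 UMIs, which allows up to 3 in each library.

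How unevenly the molecules lay over cells was measured after each cell was thinned to 2000 UMIs, which left 3503 to 4602 cells per library and left out 28 to 142. The Fano factor, the variance over cells divided by the mean, is 1 for random sampling of equal cells, and its median over all genes with a mean of at least 0.01 was 1.008 to 1.011, with a 95th percentile of 1.121 to 1.148. Of the 34 members, 22 reached that mean in at least 1 library. Ifi27l2a had a median Fano factor of 2.44 (range 2.36 to 2.89 over 6 libraries), Ifit1 2.19 (1.43 to 2.58), Isg15 1.80 (1.47 to 2.19) and Bst2 1.4 (1.15 to 1.47). All 4 exceeded the 95th percentile of all genes in each library. Ifit3, another paralog, reached that mean only in the duodenal WT library, where it was highest and had 5.03, while below that mean it had 0.999 to 2.17 in the other 5. Of Bst2, 159 high cells described below held 315 UMIs, and 153 of them, without those that had Siglech and no Cd3e or Cd3g, held 258. The lowest Fano factor of Bst2, 1.15, was that of the jejunal Btnl2-KO library, which had 0 high cells with Siglech. The factor of Bst2 without such cells was not computed.

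Irf7, with a median of 1.19 (1.10 to 1.21), and Rtp4, with 1.22, passed the 95th percentile in 5 of 6 libraries each. Ifi47, the most abundant, had 1.12 and passed it in 1. Stat2 had 1.04, Ifih1 1.01 and Herc6 1.01, near the median of all genes. A single cell held up to 18 UMIs of Isg15, 15 of Ifi27l2a and 12 of Ifit3. The 34 members summed to a mean of 2.11 to 2.39 UMIs and a median of 2 per thinned cell, with a highest cell of 33 to 85 and 14.8 to 16.6% of cells at 0. The Fano factor of the sum was 2.44, 3.64, 3.24, 2.46, 1.95 and 2.87 in the order of libraries above, and the top 5% of cells held 18.6 to 21.7% of the members' UMIs.

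To ask whether members were high in the same cells, the list was split into 18 members used to group cells and 16 whose levels were then read. Cells with at least 8 UMIs of the first list numbered 20, 41, 24, 24, 19 and 31, or 0.531% (95% exact binomial interval 0.324 to 0.818), 1.06% (0.759 to 1.43), 0.645% (0.414 to 0.959), 0.685% (0.440 to 1.02), 0.413% (0.249 to 0.644) and 0.842% (0.572 to 1.19) of the thinned cells. In these cells the second list had a mean of 6.90, 6.68, 7.29, 7.21, 4.68 and 6.16 UMIs. In cells with 0 or 1 UMI of the first list the mean was 0.630 to 0.789, and with 4 to 7 it was 1.17 to 1.68. The step thus lay at the top, and it was present in every segment and both genotypes. Grouping by the second list instead gave 11 to 23 cells per library, with a mean of 5.27 to 14.4 UMIs of the first list against 1.24 to 1.33 in cells with 0 or 1. Cells with at least 8 UMIs of each list numbered 7, 15, 10, 9, 2 and 11 in the order of libraries above, so the groupings shared only part of their cells.

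**Figure D5:**
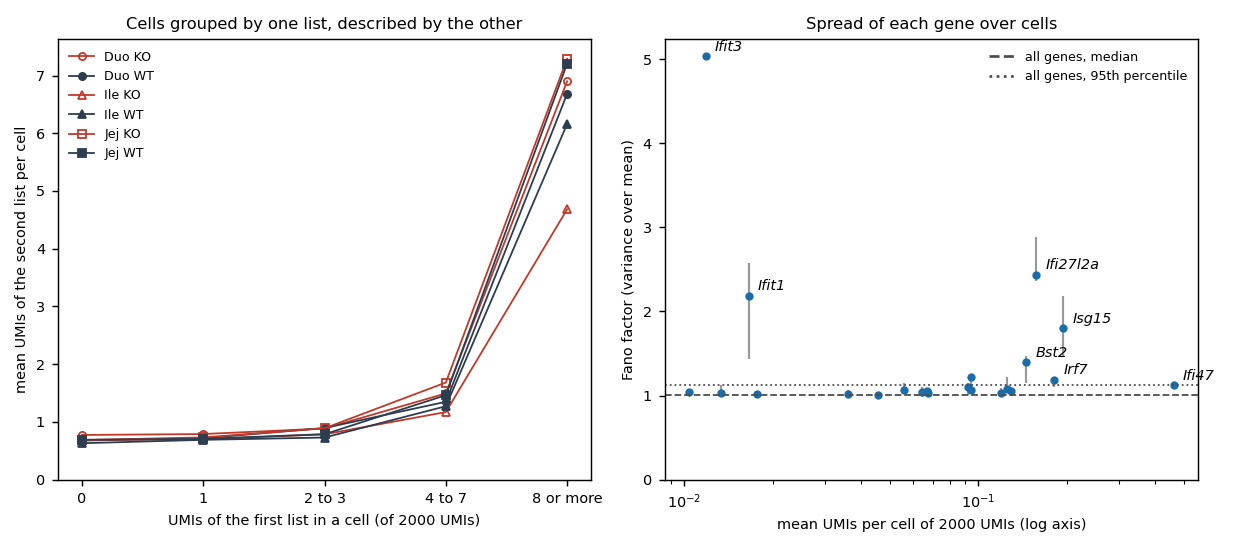
Left, mean UMIs of the second list of 16 members in thinned γδ IELs binned by UMIs of the first list of 18, for 6 libraries. Right, Fano factor against mean UMIs per cell for each member, with points at medians, lines over the range of libraries, and dashed and dotted lines at the median and 95th percentile of all genes. Means stay at or below 1.68 up to 7 UMIs and reach 4.68 to 7.29 from 8, and on the right Ifi27l2a, Ifit1 and Isg15 lie high, with Ifit3 drawn from 1 library only.

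These 159 cells held 3.08 to 9.04% of all member UMIs. Of the 16 members of the second list, 9 had at least 20 UMIs both in these cells and in cells with 0 or 1 UMI of the first list. For these 9, the ratio of the mean level in the high cells to that in the others was 162 for Cmpk2, 156 for Rsad2 and 23.9 for Oas3. It was 11.1 for Rtp4, 8.60 for Irf7, 8.56 for Trim30a, 8.53 for Zbp1, 6.65 for Ifi27l2a and 6.43 for Eif2ak2, which encodes the kinase PKR that halts translation. The other 7 had fewer UMIs, with ratios from 2.55 for Herc6 (18 UMIs in the high cells) to 254 for Mx1 (25 against 9 UMIs), while Ifi27l2b gave 0 UMIs in the high cells and Ifi44 gave 0 in the others. The median ratio over 2487 genes with at least 20 UMIs in both sets of cells was 1.02. A scarce gene reaches 20 UMIs in so few high cells only if it is high in them. Cmpk2, Rsad2 and Oas3, at 0.0024, 0.0023 and 0.0063 UMIs in the other cells, passed in this way. The median is thus no background for their ratios. Cd3e or Cd3g, subunits of the T cell receptor complex, were found in 18, 40, 24, 23, 18 and 30 of the high cells. Siglech, a marker of plasmacytoid dendritic cells, which make type I interferon, was found in 6 of the 159, none of which had a Cd3e or Cd3g UMI. Without them the mean of the second list was 4.89 to 7.56. Ifi27l2b, the member with the lowest genotype p in bulk ileal γδ IELs, gave 291 UMIs over all libraries, too few for a Fano factor.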

How the data were processed

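Bulk mRNA sequencing of γδ IELs, IECs and whole tissue (65 libraries) and single-cell sequencing of γδ IELs (6 libraries) were analysed. Bulk reads were aligned by the authors in ArrayStudio against a customized mouse genome (GRCm38 per the labels), and RSEM estimates of sense-strand exon reads were deposited without normalization, in expected counts. The labels and the paper name different library kits, which is not settled. The authors deposited single-cell data as UMI counts from Cell Ranger 2.2.0.

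The member genes and all lists were chosen with earlier results of these data known. Groups came from the labels, and 1 column of the γδ IEL data that matched no sample was not used. Expected counts were rounded, and 100 of 24475 identifiers had no gene name. Library totals were 13444964 to 38258478. A gene was tested when as many libraries as the smallest group holds had 10 counts or more, with the quasi-likelihood test of edgeR 4.0.16 after TMM scaling, on the groups compared or, for interactions, on all libraries of a table. Members were called at an FDR below 0.05 over all genes tested, together with a change of more than 1.5 times. CPM were scaled with TMM over each table. The script was tested on simulated data. No pair of replicates agreed within sampling noise.

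Full values are given for called members, for the 2 with the lowest p where none was called, for Isg15, Ifit1, Irf7, Stat2, Ifi27l2a and Ifi27l2b, and in single cells for the 5 with most UMIs and the 5 with the highest Fano factor. Others were named with their values known. The alternatives tried used DESeq2 1.42.0, limma-voom 3.58.1, other size factors, no filter, the FDR alone, all libraries in one fit, covariates and leaving out each library. Cells needed 500 genes and at most 10% mitochondrial UMIs. No doublet caller was run, and doublets were not removed.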

Additional observations from a re-analysis of the deposited data

Results flagged for a closer look

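Of 56 groups of 4 to 10 libraries examined for a library far from the others, 3 were marked, about the 1 in 20 that chance gives, and all 3 marks fell on replicate 1 of the Btnl2-KO small intestine. They are not separate, since the summed level contains the other marked members. Its summed member level was 2560 CPM, where the next highest Btnl2-KO library had 1820 and the lowest 1440. Its Isg15 was at 32.2 CPM (next 16.8 CPM), and its Ifi27l2b at 403 CPM (next 187 CPM). It is also one of the small intestinal libraries low in Fabp6 (431 CPM).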

How the results depend on the processing

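Of the counts of members called and summary values recomputed under other settings, 251 stayed within 1.5 times the reported value or, for values with no test, within their spread, and 19 moved. For single members, 553 stayed on their side of the threshold, 91 were no longer past it and none changed direction. DESeq2 called 2 members in ileal γδ IELs by genotype, 8 in small intestine by genotype, 1 in IECs of ileum against duodenum and 1 in the interaction of genotype with tissue. limma-voom with sample quality weights called 3, 1 and 2 in the same order for those before the interaction, 12 in γδ IELs of ileum against jejunum and 4 in the interaction of genotype with ileum against jejunum. One fit over all tissue libraries gave 4 in small intestine. Adding Btnl2-KO libraries gave 2 members for each jejunal step of WT γδ IELs, and the epithelium covariate gave 2 for ileum against jejunum. With each library left out in turn, the jejunum against duodenum gave 3 to 10 members, the ileum against jejunum 3 to 9, and IECs of ileum against duodenum 0 to 1, the 1 being called without replicate 3 of the WT duodenum. Thinning cells to 1000 UMIs gave a median Fano factor of the member sum of 1.82, against 2.67 at 2000. The excess of this factor over 1 shrinks in proportion to the depth drawn. The causes of the other moves were not tested. No paired analysis was possible because the labels number libraries with no number shared between groups. Groups of 2 to 4 libraries limit the γδ IEL and IEC comparisons, and members under 10 counts were not tested.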

Other observations

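Genes outside the list were also higher in the 159 cells with at least 8 UMIs of the first split list, of which 6 held Siglech and no Cd3e or Cd3g UMI. Of 2487 genes with at least 20 UMIs in both sets of cells, 68 had a ratio of at least 4 to cells with 0 or 1 UMI of that list, and 48 of these were not members. Scarce genes reach 20 UMIs in the high cells only if they are high there, so these counts depend on that filter. In the 153 cells without Siglech the chemokine gene Cxcl10 had a ratio of 82.4, with UMIs in the high cells of 4 libraries, Ly6a, the stem cell antigen Sca-1, 14.4, Phf11b 13.4, the GTPase gene Tgtp1 11.6 and Trim30d 11.2. Gbp6, Pyhin1 and Isg20, an exonuclease gene, had 10.4, 7.39 and 6.51. The 6 cells set other ratios. Ly6a had 29.3 with them, and Cd74 and H2-Aa of antigen presentation had 14.4 and 12.9 with them and 1.51 and 0.913 without. The 22 interferon-γ-type genes together had a mean of 7.22 to 11.6 UMIs in the high cells without Siglech. These genes were named after their values were seen.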
